A study of Cricetulus griseus with 24 samples.

Results

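The proteasome genes were described across 3 Chinese hamster ovary (CHO) cell lines in 2 phases of culture. They were the rows of the count table whose symbol began with Psm, followed by a letter from a to g and a digit, in upper or lower case, which gave 47 of 28037 rows. The set held 14 constitutive subunits of the 20S core (Psma1 to Psma7 and Psmb1 to Psmb7), 15 subunits of the 19S regulatory particle (6 ATPases, Psmc1 to Psmc6, and 9 other subunits) and the 5 genes treated here as the immunoproteasome (Psmb8, Psmb9, Psmb10, Psme1 and Psme2). It also held 2 tissue-specific core subunits (Psma8 and Psmb11), 7 assembly chaperones, 3 further regulators (Psme3, Psme4 and Psmf1) and Psmc3ip, a partner of the meiotic recombinases that matched the pattern by name and is no proteasome gene. Psmd1 and Psmd3, both 19S subunits, were not analysed here.

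The proteasome is the barrel-shaped protease that degrades most short-lived and misfolded proteins of the cytosol and nucleus, including proteins sent back from the endoplasmic reticulum. The alpha subunits form the outer rings and the gate of the 20S core, and the beta subunits form the inner rings, in which Psmb5, Psmb6 and Psmb7 carry the proteolytic sites. The 19S particle binds ubiquitinated proteins, removes the ubiquitin and unfolds the substrate with its ATPase ring. The inducible subunits Psmb8, Psmb9 and Psmb10 can take the places of Psmb5, Psmb6 and Psmb7, and this immunoproteasome, with the PA28 activator made of Psme1 and Psme2, is best known for producing peptides for antigen presentation after interferon. Secretory cells that make much immunoglobulin carry a heavy load of protein folding, and degradation by the proteasome is part of their quality control.

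A0 was a clone of the line CHO DG44 that carried 2 plasmids, 1 for the heavy chain of an IgG and 1 for its light chain, each with a selection marker. A1 was the progeny of A0 after stepwise amplification in methotrexate, so that A0 and A1 share the transgenes and the DG44 background and A1 stems from 1 clone, whereas CHO-S is a separate line, labelled as not producing. The titles of the CHO-S samples also carry the tag NDST, whose meaning the labels do not give. All 3 were grown as batch suspension cultures and sampled in exponential or stationary phase, with 4 cultures of A0 and 3 each of A1 and CHO-S per phase. The labels do not say that cultures of a group were started apart, so p-values measure the spread between these samples, which may be partly technical. A line or phase effect in bulk RNA cannot tell fewer cells of a kind apart from less RNA per cell.

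The 24 libraries held 1038026 to 14652646 counts with a median of 12166034, and the 8 libraries of A0 in exponential phase were summed into their 4 cultures, of 23065838 to 26584337 counts. CHO-S stationary culture 1 was the shallowest library, followed by one of 6532373 counts, and it stood apart from the other CHO-S stationary cultures. Of 46 members of at least 5 CPM (counts scaled to library size), 6 lay over 1.5-fold above both other cultures in it and 17 lay over 1.5-fold below, or 13% and 37%, against 18.2% and 31.4% of 10588 genes. One of the 2 libraries of A0 exponential culture 1, labelled RLT, also differed, with 7390.4 CPM summed over the 29 core and 19S genes against 5824.3 CPM in its partner. For most genes named from CHO-S stationary cultures the value without that culture is given, and for Psmb5, Psmb6 and Psmb10 the value without the RLT libraries. The fibroblast marker Vim was at 728 to 1464.6 CPM in all cultures, whereas Epcam was at 1.57 to 3.54 CPM in A0 and A1 and at 0 to 0.22 CPM in CHO-S.

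Levels below are CPM after TMM scaling over all 20 cultures, and they compare cultures for one gene or one sum, not one gene with another, because they are not divided by gene length. Differences between groups are log2 fold changes ± SE, and a gene was called at an adjusted p under 0.05. In exponential phase the 14 core genes summed to 2914.2 CPM ± 404 (SD, n = 4) in A0, 3220.4 ± 20.3 (n = 3) in A1 and 3299.8 ± 50.9 (n = 3) in CHO-S. The spread among the A0 cultures was thus larger than the distance between the lines. The 15 genes of the 19S particle summed to 2957.6 CPM ± 152 in A0, 3365.8 ± 43.0 in A1 and 3241.6 ± 50.2 in CHO-S. In stationary phase the core sums were 2364.6 ± 90.3, 2554.2 ± 107 and 2555.3 ± 437 CPM in the same order of lines, and those of the 19S particle were 2648.2 ± 124, 2613.3 ± 164 and 2069.8 ± 9.33 CPM. The CHO-S stationary core mean was raised by culture 1, with 3060, 2311.2 and 2294.8 CPM in cultures 1, 2 and 3. Cultures 2 and 3 lay below every stationary A1 culture (2430.7 to 2626.7 CPM) and within the A0 range (2258.3 to 2476.4 CPM). Both sums had a lower mean in stationary than in exponential phase in each line. The 5 immunoproteasome genes together were at 218 ± 17, 262 ± 13 and 270 ± 15 CPM in exponential A0, A1 and CHO-S and at 214 ± 11.2, 247 ± 8.5 and 220 ± 20.8 CPM in stationary phase. No test was run on these sums.

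**Figure D1:**
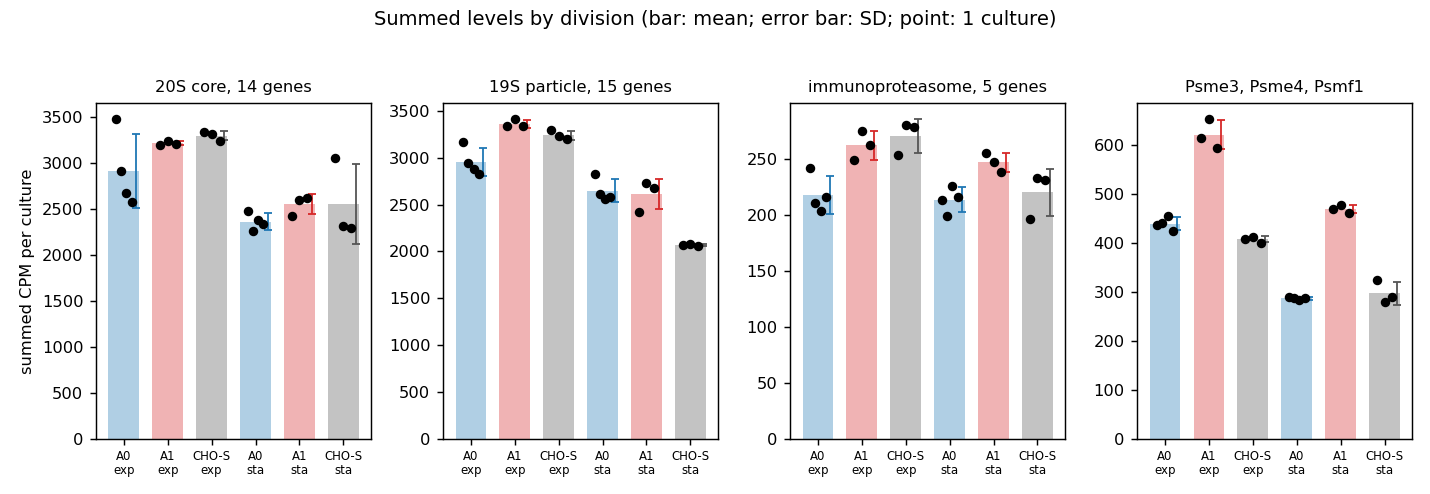
Summed CPM of the 14 core, 15 regulatory (19S), 5 immunoproteasome and 3 further regulatory genes, per culture, by line and phase; bars are means, error bars SD and points the 4, 3 and 3 cultures of A0, A1 and CHO-S. The Psme3, Psme4 and Psmf1 sum reaches a mean of 620 CPM in exponential A1 against 438 in A0 and 407 in CHO-S.

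The comparison of A1 with A0 asks what differs after amplification for higher antibody output. In exponential phase 15 members were higher in A1 and 4 lower, 19 of 47, where 25.9% of all 19946 genes tested and 38.0% of the 10394 genes of at least 5 CPM were called. Because nearly every member is above 5 CPM, the second share is the closer background, and the share of members called in either direction lay near it. By direction, 18.2% of genes of at least 5 CPM were called higher and 19.8% lower, beside 15 and 4 of the 47 members. For the interactions, and for some counts with cultures or libraries left out, only the share of all genes tested is given. For other such counts no share is given. The median of the 29 core and 19S genes was 0.11, where the median of the genes of at least 5 CPM was -0.01 with quartiles of -0.25 and 0.24. In stationary phase 14 were higher and 7 lower of 46 tested, where 33.7% of all genes tested and 47.9% of those of at least 5 CPM were called, and the core and 19S median was -0.01. Both medians lay inside the quartiles of the genes of at least 5 CPM (-0.27 and 0.26 in stationary phase), and the called differences were spread over the classes. In both phases 11 members were called higher (Psma6, Psma7, Psmb2, Psmb3, Psmb8, Psmb9, Psmc3, Psmd5, Psmd11, Psme4 and Psmf1) and 3 lower (Psma8, Psmc3ip and Psmd9), 23.9% and 6.52% of the 46 members tested in each, where 10% and 11.5% of genes of at least 5 CPM were called so in both phases.

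**Figure D2:**
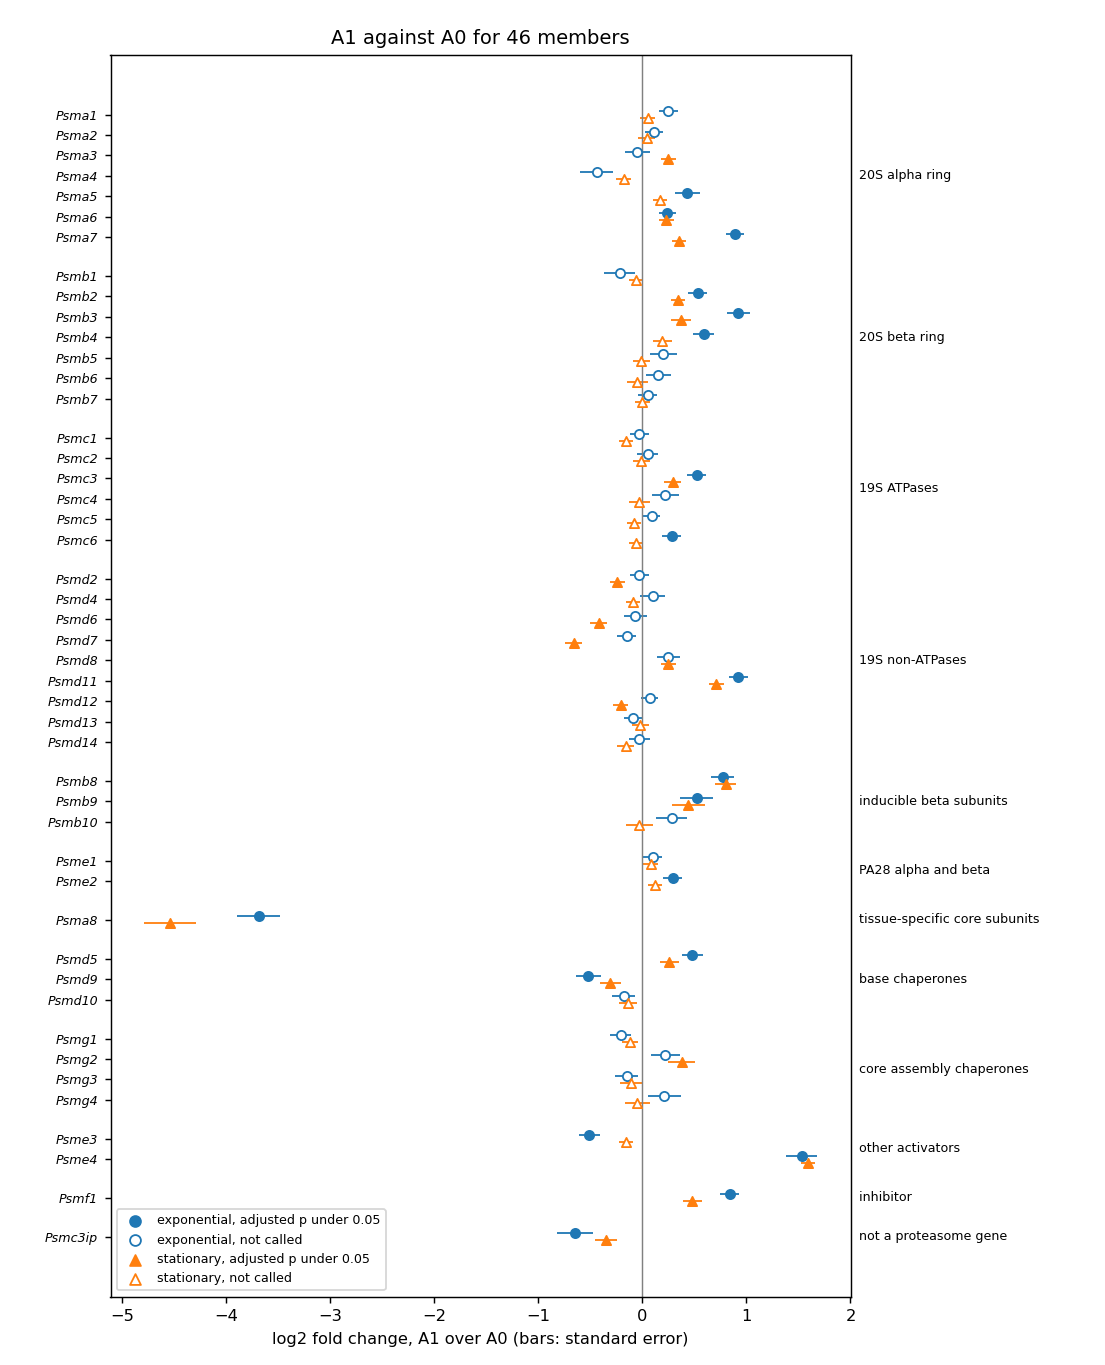
Log2 fold change of A1 against A0 for 46 members by class, in exponential phase (blue circles) and stationary phase (orange triangles); bars are SE and filled symbols have an adjusted p under 0.05. Most core and 19S genes sit near 0, Psme4 lies at 1.53 and 1.59, and Psma8 at -3.69 and -4.54.

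The largest increase in A1 was that of Psme4, which encodes PA200, an activator that binds the end of the 20S core in place of the 19S particle. In exponential phase Psme4 was at 100, 103, 155 and 159 CPM in the A0 cultures, at 370, 394 and 353 CPM in A1 and at 150, 152 and 151 CPM in CHO-S. In stationary phase it was at 87.2, 84.9, 95.3 and 93.0 CPM in A0, 285, 275 and 264 CPM in A1 and 141, 95.8 and 96.5 CPM in CHO-S. All 6 A1 cultures lay above every A0 and CHO-S culture, without overlap, whereas A0 and CHO-S lay close together. A1 exceeded A0 2.89-fold in exponential (1.53 ± 0.15, adjusted p = 3.1e-06) and 3.02-fold in stationary phase (1.59 ± 0.07, adjusted p = 2.8e-09), and it exceeded CHO-S 2.46-fold in both (1.30 ± 0.05, adjusted p = 5.4e-17, and 1.30 ± 0.19, adjusted p = 0.0012). Without CHO-S culture 1 the stationary difference of Psme4 from CHO-S was 1.49 ± 0.07. A0 and CHO-S differed by -0.21 ± 0.15 (adjusted p = 0.25) in exponential phase, which passed no threshold. The A0 cultures 1 and 2 were lower than 3 and 4, and A1 exceeded either pair, by 1.87 ± 0.07 and 1.24 ± 0.08.

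Psmf1 encodes PI31, which inhibits the 20S core in vitro. Its level was 28.7, 28.4, 26.4 and 28.4 CPM in exponential A0 and 47.4, 51.6 and 51.8 CPM in exponential A1, with 38.9, 39.4 and 38.5 CPM in CHO-S between them. In stationary phase it was 34.8, 34.5, 31.3 and 30.4 CPM in A0 and 43.8, 48.8 and 45.5 CPM in A1, again without overlap. A1 was higher by 0.84 ± 0.09 (adjusted p = 1.1e-05) and by 0.48 ± 0.09 (adjusted p = 6.9e-04). Psme3, which encodes PA28 gamma, the nuclear activator of the core, went the other way. It was at 306, 308, 274 and 235 CPM in exponential A0 and at 195, 207 and 190 CPM in A1, a difference of -0.51 ± 0.10 (adjusted p = 0.002). All A0 cultures were above all A1 cultures in that phase, and in stationary phase the difference was -0.16 ± 0.07 (adjusted p = 0.097).

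Of the 14 core genes, 6 were higher in A1 in exponential phase and none lower, and 5 were higher in stationary phase. The backgrounds in these phases are 18.2% and 22.9% of genes of at least 5 CPM called higher and 19.8% and 25% called lower. Psma7, an alpha-ring subunit, was at 260, 229, 212 and 262 CPM in exponential A0 and at 441, 447 and 452 CPM in A1. In stationary phase it was at 330, 288, 301 and 292 CPM in A0 and at 370, 395 and 404 CPM in A1. The groups did not overlap in either phase, and A1 was higher by 0.89 ± 0.09 (adjusted p = 9.0e-06) and 0.35 ± 0.07 (adjusted p = 0.0011). Psmb3, a structural beta-ring subunit, was at 52.3, 45.1, 47.4 and 63.6 CPM in exponential A0 and at 96, 96 and 105 CPM in A1. Its stationary levels were nearer, 63.6, 49.2, 54.3 and 46.3 CPM in A0 and 63.8, 73.8 and 69.7 CPM in A1, with the highest A0 culture just under the lowest of A1. The differences were 0.92 ± 0.11 (adjusted p = 3.4e-05) and 0.37 ± 0.10 (adjusted p = 0.012). Psmb2, which lies next to it in the beta ring, was higher by 0.53 ± 0.09 (adjusted p = 6.1e-04) and 0.34 ± 0.07 (adjusted p = 0.0021), and Psma6, an alpha-ring subunit, by 0.24 ± 0.08 and 0.23 ± 0.07 (adjusted p = 0.044 and 0.02). Psmb4 and Psma5, from the beta and alpha ring, were called in exponential phase only (0.59 ± 0.10, adjusted p = 4.0e-04, and 0.43 ± 0.12, adjusted p = 0.015), and Psma3, an alpha-ring subunit, in stationary phase only (0.25 ± 0.07, adjusted p = 0.011).

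The 3 catalytic genes did not pass the threshold. Psmb5, with the chymotrypsin-like site, was at 157, 105, 102 and 115 CPM in exponential A0 and 139, 132 and 141 CPM in A1. Psmb6, with the caspase-like site, was at 128, 92.0, 87.8 and 91.7 CPM in A0 and 113, 109 and 112 CPM in A1. For both, A0 culture 1 was above the A1 cultures and the other A0 cultures were below them. Psmb7, with the trypsin-like site, was at 217, 188, 188 and 175 CPM in A0 and 196, 203 and 198 CPM in A1, which overlapped. The differences were 0.20 ± 0.13 (adjusted p = 0.3), 0.15 ± 0.12 (adjusted p = 0.4) and 0.05 ± 0.09 (adjusted p = 0.73), and in stationary phase -0.01, -0.05 and -0.00 with adjusted p of 0.93, 0.71 and 1. Without the RLT libraries, Psmb5 and Psmb6 were called higher in exponential A1 (0.40 ± 0.08, adjusted p = 0.0015, and 0.34 ± 0.08, adjusted p = 0.0028), so that for these genes the call turned on those libraries. Against A0 cultures 3 and 4 alone they were 0.34 ± 0.09 and 0.30 ± 0.07, against 0.06 ± 0.14 and 0.01 ± 0.12 with cultures 1 and 2.

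In the 19S particle 3 of 15 genes were higher in exponential A1 and none lower, and in stationary phase 3 were higher and 4 lower, beside 18.2% and 22.9% of genes of at least 5 CPM called higher and 19.8% and 25% called lower. Psmd11, a lid subunit that holds the regulatory particle together, was at 260, 266, 281 and 231 CPM in exponential A0 and at 478, 508 and 488 CPM in A1. In stationary phase it was at 234, 232, 231 and 238 CPM in A0 and at 349, 408 and 395 CPM in A1. CHO-S was lowest in both phases, at 178, 172 and 171 CPM and then 103, 119 and 118 CPM, so that the 3 lines formed 3 separate levels. A1 exceeded A0 by 0.92 ± 0.09 (adjusted p = 3.6e-06) and 0.71 ± 0.07 (adjusted p = 3.5e-06), and A0 exceeded CHO-S by 0.59 ± 0.09 (adjusted p = 5.5e-05) and 1.02 ± 0.13 (adjusted p = 2.0e-04). A1 exceeded CHO-S by 1.49 ± 0.04 (adjusted p = 1.2e-18) and 1.74 ± 0.15 (adjusted p = 8.4e-05), and without CHO-S culture 1 the stationary differences of Psmd11 were 1.0 ± 0.08 for A0 and 1.67 ± 0.07 for A1. The ATPase Psmc3 was higher in A1 by 0.52 ± 0.09 and 0.29 ± 0.08 (adjusted p = 8.0e-04 and 0.014), and the ATPase Psmc6 by 0.28 ± 0.09 in exponential phase (adjusted p = 0.026). In stationary phase Psmd8, a lid subunit, was higher by 0.25 ± 0.07 (adjusted p = 0.013).

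The stationary decreases in A1 were of the lid subunits Psmd6, Psmd7 and Psmd12 and of Psmd2, the large scaffold of the base that binds ubiquitin shuttle proteins. Psmd7, the partner of the deubiquitinase Psmd14, was at 286, 268, 231 and 241 CPM in stationary A0 and at 152, 174 and 164 CPM in A1. No A1 culture reached the A0 range, and the difference was -0.66 ± 0.08 (adjusted p = 4.0e-05). In exponential phase Psmd7 was at 235, 232, 208 and 231 CPM in A0 and at 201, 210 and 204 CPM in A1, and the difference was -0.15 ± 0.09 (adjusted p = 0.23). The difference between these 2 effects was itself past the threshold (interaction -0.51 ± 0.12, adjusted p = 0.01). Psmd6, Psmd2 and Psmd12 were lower by smaller amounts, at -0.42 ± 0.08, -0.24 ± 0.07 and -0.21 ± 0.07 (adjusted p = 0.0013, 0.011 and 0.027). The stationary count for all members went from 21 to 12 and 13 when A1 culture 2 or 3 was left out. How many of all genes lost their call in these settings is not given.

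Within the immunoproteasome, 2 of the 3 inducible catalytic subunits were higher in A1 in both phases. Of genes of at least 5 CPM, 18.2% and 22.9% were called higher in the 2 phases and 10% in both. Psmb8 was at 20.3, 17.7, 16.1 and 19.2 CPM in exponential A0 and 30.1, 33.6 and 29.8 CPM in A1, and at 21.4, 18.7, 24.4 and 20.3 CPM in stationary A0 and 37.4, 38.4 and 36.2 CPM in A1. All A1 cultures were above all A0 cultures, by 0.77 ± 0.11 (adjusted p = 1.5e-04) and 0.80 ± 0.10 (adjusted p = 3.6e-05). Psmb9 was at 10.4, 10.6, 7.46 and 7.39 CPM in exponential A0 and 11.9, 14.3 and 12.5 CPM in A1, with 12.5, 12.2, 9.43 and 9.29 CPM and 18.5, 12.6 and 14 CPM in stationary phase. The groups did not overlap, yet A0 cultures 1 and 2 lay close under A1. The differences were 0.52 ± 0.16 (adjusted p = 0.025) and 0.44 ± 0.16 (adjusted p = 0.047), and against A0 cultures 1 and 2 alone they were 0.29 ± 0.11 and 0.23 ± 0.15, not called. Psmb9 also lost its exponential call when any 1 of the A1 cultures or A0 culture 3 was left out. Psmb10 was at 21.7, 15.6, 13.9 and 13.6 CPM in A0 and 18.6, 20.3 and 20.1 CPM in A1, with A0 culture 1 above all of A1. Its difference of 0.28 ± 0.15 (adjusted p = 0.22) was not called, became 0.58 ± 0.11 (adjusted p = 7.9e-04) without the RLT libraries, and was -0.03 ± 0.13 in stationary phase. Of the PA28 genes, Psme1 was uncalled in both phases (0.10 ± 0.09 and 0.08 ± 0.07, adjusted p = 0.49 and 0.47), and Psme2 was higher in exponential A1 by 0.29 ± 0.09 (adjusted p = 0.026). The call of Psme2 held in 11 of 17 alternative settings.

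**Figure D3:**
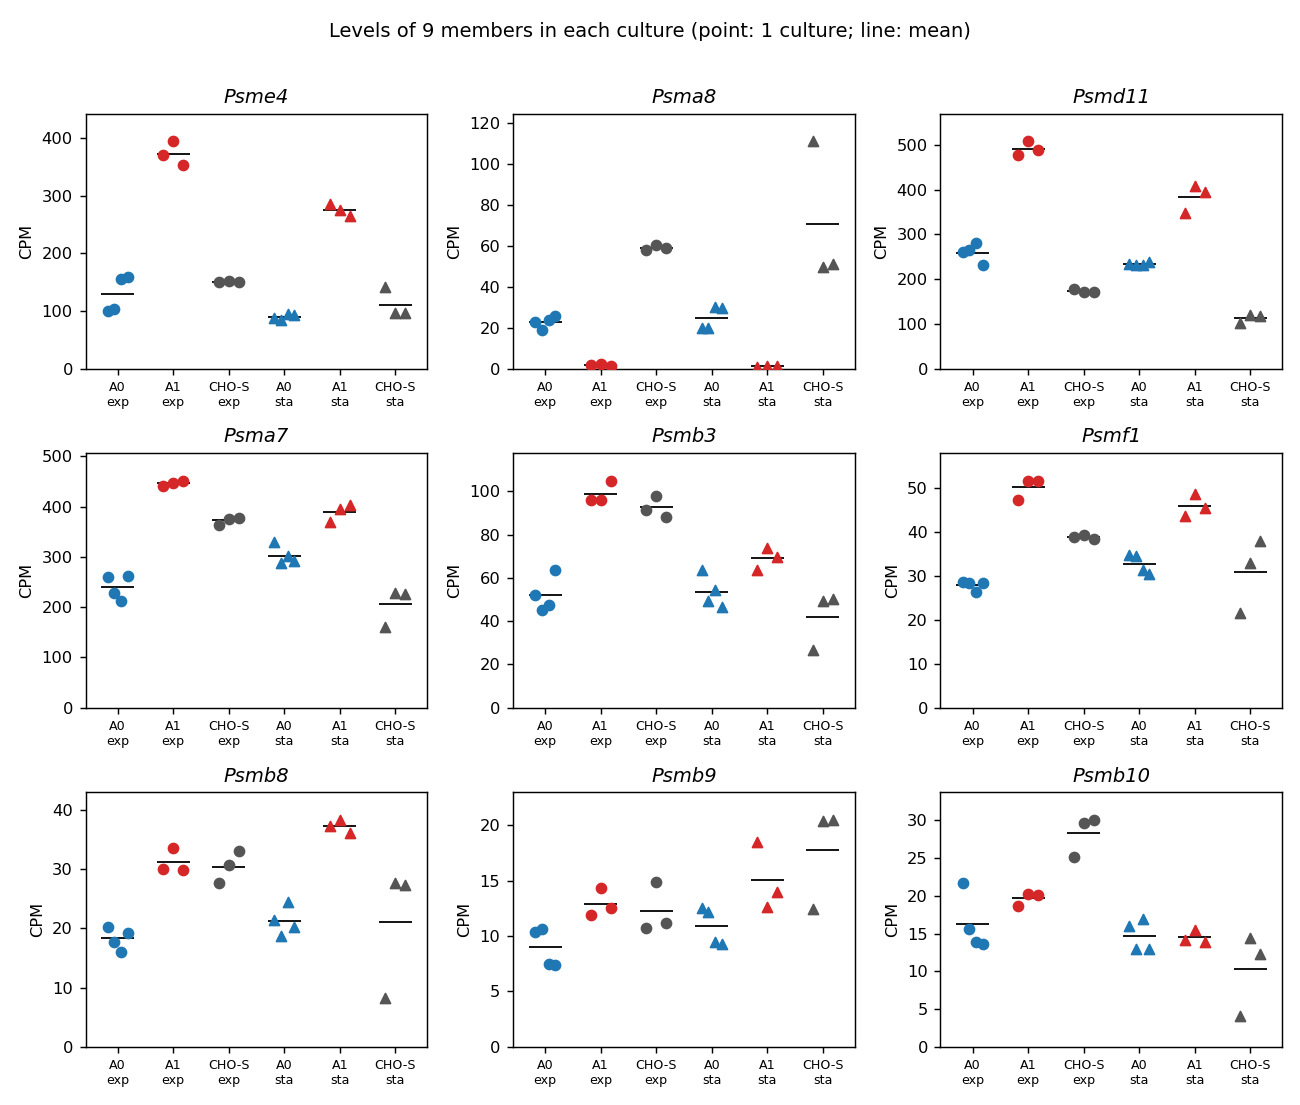
CPM in each of the 20 cultures for Psme4, Psma8, Psmd11, Psma7, Psmb3, Psmf1, Psmb8, Psmb9 and Psmb10, with A0 in blue, A1 in red and CHO-S in grey, circles for exponential and triangles for stationary phase and a line at each mean. Psma8 is at 0.995 to 2.30 CPM in every A1 culture and at 18.9 CPM or more elsewhere, and CHO-S stationary culture 1 lies away from its partners in several genes.

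The largest difference of all was that of Psma8, the alpha subunit that replaces Psma7 in the proteasomes of male germ cells. Psma8 was at 22.7, 18.9, 23.8 and 25.7 CPM in exponential A0, 1.96, 2.30 and 1.07 CPM in A1 and 57.8, 60.5 and 58.7 CPM in CHO-S. In stationary phase it was at 19.6, 20, 29.9 and 29.8 CPM in A0, 0.995, 1.02 and 1.17 CPM in A1 and 111, 49.6 and 51.3 CPM in CHO-S. The lines did not overlap in either phase, with A1 lowest and CHO-S highest, and the A1 levels rested on 7 to 27 counts a culture. A1 was below A0 by a factor of 12.9 (-3.69 ± 0.21, adjusted p = 1.0e-08) and of 23.3 (-4.54 ± 0.25, adjusted p = 1.8e-08), and A0 was below CHO-S by -1.36 ± 0.11 (adjusted p = 8.2e-08) and -1.44 ± 0.29 (adjusted p = 0.0029). Without CHO-S culture 1 the last value was -1.0 ± 0.17. A1 was below CHO-S by -5.07 ± 0.13 (adjusted p = 1.2e-19) and -5.95 ± 0.41 (adjusted p = 2.8e-05), the latter -5.57 ± 0.17 without CHO-S culture 1. Psma8 and Psma7 are paralogs, and how reads that match both were counted was not tested. The other tissue-specific subunit, Psmb11 of the thymus, was at 1 count at most in A0 exponential cultures and at 0 in every other group, where 3 counts per culture is the floor, so no fold change was taken.

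The assembly genes moved in both directions. Psmd5, a chaperone of the 19S base, was higher in A1 by 0.48 ± 0.10 and 0.26 ± 0.09 (adjusted p = 0.0023 and 0.047), whereas Psmd9, another base chaperone, was lower by -0.52 ± 0.12 and -0.31 ± 0.10 (adjusted p = 0.0037 and 0.025). Psmd9 was at 76.6, 66.4, 58.0 and 55.7 CPM in exponential A0 and at 47.0, 44.2 and 43.1 CPM in A1, which did not overlap. Psmd10 (gankyrin), the base chaperone known as an oncoprotein in liver, was not called in either phase (-0.18 ± 0.11 and -0.14 ± 0.09). Of the core chaperones Psmg1 to Psmg4, which build the alpha ring and place the first beta subunits, none was called in exponential phase, and Psmg2 was higher in stationary A1 by 0.38 ± 0.13 (adjusted p = 0.032). Psmc3ip, which is no proteasome gene, was lower by -0.65 ± 0.17 and -0.35 ± 0.11 (adjusted p = 0.01 and 0.027).

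The A0 cultures 1 and 2, whose second library is labelled RLT, lay apart from cultures 3 and 4, whose second library is labelled Duplicate. In exponential phase 21 of 46 members (45.7%) were higher in both of cultures 1 and 2 than in both others and 3 (6.52%) were lower, where the shares were 27% and 32.1% of all genes of at least 5 CPM. In stationary phase the numbers were 13 (28.3%) and 10 (21.7%), against 31.3% and 32.8%. Psma4, an alpha-ring subunit, spread widely, at 1010.8, 833, 723 and 527 CPM in exponential A0 against 572, 584 and 558 CPM in A1. Culture 4 lay below the A1 cultures and the other A0 cultures above them, and the difference of -0.44 ± 0.16 (adjusted p = 0.052) was -0.70 ± 0.08 with cultures 1 and 2 and -0.13 ± 0.12 with 3 and 4. The stationary A0 libraries carried neither label. Their counts differed by a chi-square per degree of freedom of 3.96 between cultures 1 and 2 and 2.9 between 3 and 4. Between those pairs it was 17 to 20.7. The main tests count the 4 A0 cultures as separate samples. The part of the library type or the culture in these differences was not tested. Of all members, 23 were called against cultures 1 and 2 (14 higher, 9 lower), 24 against cultures 3 and 4 (21 higher, 3 lower) and 26 without the RLT libraries (22 higher, 4 lower), where 37.6%, 25.8% and 29.9% of all genes tested were called.

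Against CHO-S more members differed in exponential phase, and so did a larger share of all genes. In exponential phase 7 members were higher and 23 lower in A0, 30 of 47, where 49.5% of all genes tested and 65.8% of those of at least 5 CPM were called. For A1 against the same CHO-S cultures 13 were higher and 19 lower of 46, where the shares were 57.2% and 76.2%. Both shares of members lay below the share for genes of at least 5 CPM. Shares of all genes by direction are not given for A0 or A1 against CHO-S in either phase. The 2 comparisons share the CHO-S cultures and are given side by side. Psmb4, a beta-ring subunit, was at 88.3, 83.8, 71.8 and 90.0 CPM in A0, 125, 121 and 132 CPM in A1 and 217, 228 and 202 CPM in CHO-S, with CHO-S well above both. Its differences from CHO-S were -1.36 ± 0.09 (adjusted p = 2.5e-08) in A0 and -0.78 ± 0.05 (adjusted p = 4.9e-12) in A1. Psma5, an alpha-ring subunit, was at 194, 142, 129 and 166 CPM in A0, 211, 211 and 217 CPM in A1 and 352, 337 and 336 CPM in CHO-S. It was lower than CHO-S by -1.10 ± 0.12 and -0.69 ± 0.04 (adjusted p = 2.3e-06 and 1.4e-12), and again the 3 lines did not overlap. Psmb1, a beta-ring subunit, was lower by -0.73 ± 0.15 and -0.97 ± 0.05 (adjusted p = 9.2e-04 and 2.2e-14), and the core chaperone Psmg2 by -0.99 ± 0.13 and -0.79 ± 0.11 (adjusted p = 1.4e-05 and 1.1e-06).

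Other members were higher in both producing lines. Psma4 was higher than CHO-S in A0 by 0.59 ± 0.16 (adjusted p = 0.0069). The ATPase Psmc4 was at 303, 252, 199 and 203 CPM in exponential A0, 276, 279 and 281 CPM in A1 and 184, 176 and 186 CPM in CHO-S. No CHO-S culture reached the others, and the differences were 0.41 ± 0.13 (adjusted p = 0.017) and 0.61 ± 0.04 (adjusted p = 1.5e-11). The A0 difference of Psmc4 was not called when any 1 CHO-S culture was left out (0.37 to 0.41, adjusted p = 0.053 to 0.081), with all 6 groups in 1 fit (0.40, adjusted p = 0.059) or with A0 cultures 3 and 4 alone (0.15 ± 0.06, adjusted p = 0.072). The catalytic Psmb6 was at 71.1, 71.7 and 71.8 CPM in CHO-S, below every A0 and A1 culture, by 0.49 ± 0.12 and 0.63 ± 0.05 (adjusted p = 0.0036 and 1.6e-10). The core chaperone Psmg1 was higher by 0.62 ± 0.10 and 0.40 ± 0.05 (adjusted p = 9.6e-05 and 5.3e-07). Of the inducible subunits, Psmb8 was at 27.6, 30.7 and 33.1 CPM in CHO-S, above A0 and overlapping A1, and Psmb10 at 25.2, 29.6 and 30.1 CPM, above both. A0 was below CHO-S by -0.72 ± 0.11 for Psmb8 and -0.79 ± 0.15 for Psmb10 (adjusted p = 6.9e-05 and 5.5e-04), and A1 differed from CHO-S by 0.03 ± 0.08 and -0.53 ± 0.09 (adjusted p = 0.8 and 1.4e-05). Psmb9 was lower than CHO-S in A0 by -0.43 ± 0.17 (adjusted p = 0.046), which was not called with A0 cultures 1 and 2 alone (-0.21 ± 0.14), and differed by 0.08 in A1 (adjusted p = 0.64). Psme2 was lower than CHO-S in A0 by -0.35 ± 0.08 (adjusted p = 0.0031).

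In stationary phase the comparisons with CHO-S depended on its culture 1. With all cultures 8 members were higher and 5 lower in A0, 13 of 46, where 40.0% of all genes tested and 49.4% of those of at least 5 CPM were called. Without that culture 12 were higher and 8 lower, where 51.8% of all genes were called. For A1 against CHO-S 8 were higher and 3 lower, where 34.8% and 41.7% were called, and without that culture 20 were higher and 9 lower, where 57.4% of all genes were called. Psmc4 was at 304, 255, 232 and 238 CPM in stationary A0, 225, 277 and 256 CPM in A1 and 48.5, 106 and 107 CPM in CHO-S. All CHO-S cultures were far below both producing lines, by 1.5 ± 0.25 (adjusted p = 9.0e-04) and 1.48 ± 0.27 (adjusted p = 0.0038), and without culture 1 the differences for Psmc4 were 1.28 ± 0.11 and 1.23 ± 0.07. Psmb6 was at 108, 82.3, 86.6 and 82.1 CPM in A0, 83.8, 85.2 and 91.5 CPM in A1 and 31.0, 48.5 and 46.5 CPM in CHO-S. It was higher in the producers by 1.03 ± 0.19 and 0.98 ± 0.18 (adjusted p = 0.0015 and 0.0039), and by 0.93 ± 0.12 and 0.84 ± 0.08 without culture 1. The deubiquitinase Psmd14 showed the influence of that library, at 76.4, 46.2 and 47.8 CPM in CHO-S, so that its difference of 0.63 ± 0.20 in A0 became 0.88 ± 0.10 without it. Other members were lower in the producers. Psmb1 was at 98.1, 88.4, 90.0 and 90.5 CPM in stationary A0, 87.7, 86.7 and 92.0 CPM in A1 and 179, 190 and 193 CPM in CHO-S. All CHO-S cultures lay above both producing lines, by -1.05 ± 0.13 in A0 and -1.10 ± 0.14 in A1 (adjusted p = 1.4e-04 and 5.6e-04), and without culture 1 by -1.05 ± 0.08 and -1.14 ± 0.07. Psmg2 was lower by -0.88 ± 0.16 and -0.50 ± 0.16 (adjusted p = 0.0017 and 0.036), and by -0.91 ± 0.14 and -0.55 ± 0.12 without culture 1. The A1 difference of Psmg2 kept its call in only 5 of 12 alternative settings, with values of -0.56 to -0.38. Psmb9 was lower in A0 by -0.83 ± 0.20 (adjusted p = 0.0068) and differed by -0.40 ± 0.20 in A1 (adjusted p = 0.16), which became -0.90 ± 0.15 and -0.51 ± 0.13 without culture 1.

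The comparison of growth phases asks what differs between stationary and exponential cultures of one line. Of the 29 core and 19S genes, 26 fell in A1, 9 in A0 and 14 in CHO-S. In A1, 32 members fell and 1 rose of 46, where 17.8% of all genes tested and 29.8% of those of at least 5 CPM fell and 15.6% and 21.1% rose, with 33.4% and 50.8% called in either direction. A single fit of all 6 groups called 12 members in A1 in place of 33, and the share of all genes called in that fit is not given. None of the 29 core and 19S genes rose in A1, and they had a median of -0.33 with no value above -0.04, where genes of at least 5 CPM had a median of -0.04 and quartiles of -0.25 and 0.18. In A0, 14 members fell and 2 rose of 47, where 37.7% of all genes tested were called, 20.1% in the lower direction, and 55.1% and 32.2% of those of at least 5 CPM. There 9 of the 29 core and 19S genes fell and 2 rose, a share that lay near that background, and their median of -0.17 stood beside -0.08 for genes of at least 5 CPM. In CHO-S, 17 members fell and 1 rose of 46, where 13.3% of all genes tested were called, 6.48% in the lower direction, and 17.9% and 10.1% of those of at least 5 CPM, and 14 of the 29 core and 19S genes fell.

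**Figure D4:**
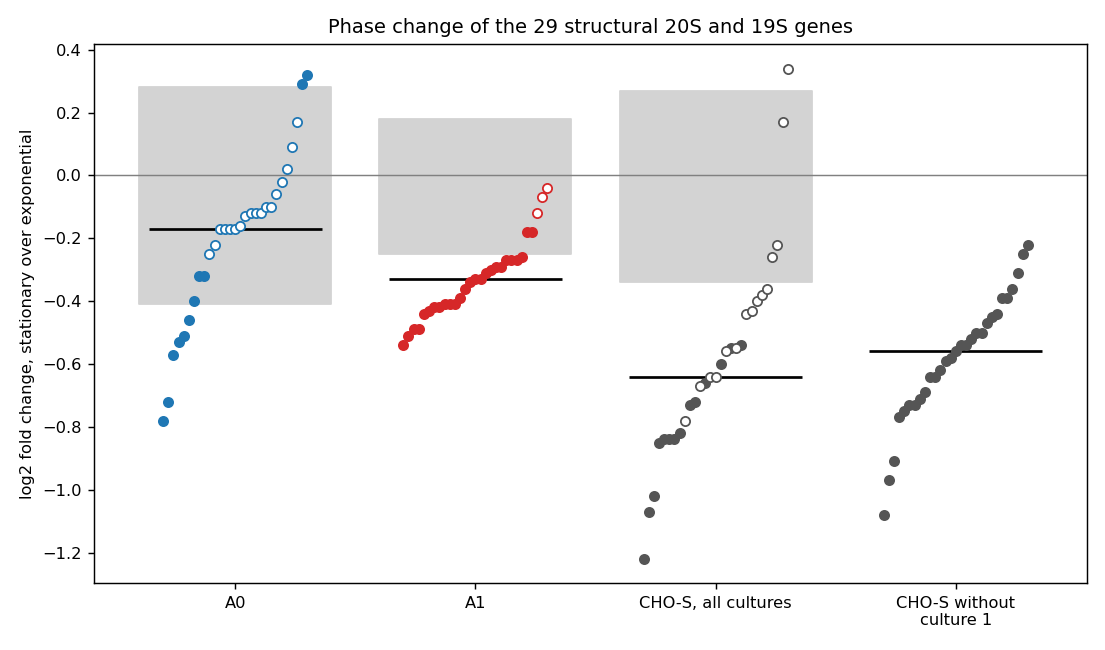
Log2 fold change of stationary against exponential phase for the 29 core and 19S genes in A0, A1, CHO-S with all cultures and CHO-S without culture 1; filled points have an adjusted p under 0.05, the black line is the median and the grey band spans the quartiles of genes of at least 5 CPM (not drawn for the last column). The A1 points lie between -0.54 and -0.04, and the CHO-S medians lie at -0.64 with and -0.56 without culture 1.

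The CHO-S count was unstable between cultures. Without CHO-S culture 1 in both phases 42 members fell and 1 rose, with 29 of 29 core and 19S genes lower and 46.2% of all genes tested called, whereas no member was called without culture 2 or without culture 3. The share of all genes called without culture 2 or 3 is not given. With the stationary culture 1 alone left out, 41 fell and 1 rose, where 47.7% of all genes were called. Psma3 and Psma4, both of the alpha ring, were at 731 and 1037.2 CPM in that library and at 167 and 171 CPM and at 368 and 348 CPM in the other stationary cultures. Their phase differences were 0.34 ± 0.55 and 0.17 ± 0.41 with it and -0.73 ± 0.05 and -0.54 ± 0.04 without CHO-S culture 1. With all cultures the largest CHO-S decrease was that of the ATPase Psmc5, from 220, 217 and 212 CPM to 70.2, 101 and 102 CPM, a difference of -1.22 ± 0.16 (adjusted p = 0.0054), or -1.08 ± 0.05 without culture 1. The inducible subunit Psmb10 fell from 25.2, 29.6 and 30.1 CPM to 4.13, 14.4 and 12.3 CPM, by -1.17 ± 0.20 (adjusted p = 0.013) or -1.14 ± 0.10 without culture 1. In neither gene did the phases overlap. Psmb3 fell in CHO-S by -1.07 ± 0.21 (adjusted p = 0.019), or -0.91 ± 0.07 without culture 1.

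The phase comparisons of the 3 lines share no library. With all cultures, 5 members fell in all 3 lines, namely the ATPase Psmc3, the 19S subunits Psmd2, Psmd8 and Psmd13, and the activator Psme3. They were 10.9% of the 46 members tested in each line, where 5.41% of genes of at least 5 CPM fell in all 3. Without CHO-S culture 1 there were 12 (26.1%, against 14%), the further ones being Psma2, Psma3, Psma4, Psmb1, Psmb7, Psmd10 and Psme4. No member rose in all 3 lines in either setting, where 2.79% of genes of at least 5 CPM did, or 7.38% without CHO-S culture 1. Psme3 fell by -0.80 ± 0.10 (adjusted p = 1.1e-05) in A0, -0.40 ± 0.06 (adjusted p = 2.7e-06) in A1 and -0.48 ± 0.12 (adjusted p = 0.036) in CHO-S, or -0.51 ± 0.05 without CHO-S culture 1. In A0 its stationary level was 167, 167, 157 and 162 CPM, below each of the exponential cultures. In A1 the largest decreases among core and 19S genes were of Psma2, an alpha-ring subunit (-0.54 ± 0.06, adjusted p = 3.9e-09), and Psmc3 (-0.51 ± 0.06, adjusted p = 6.3e-08).

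In any line 4 members rose, Psma7, Psmb4, Psmb8 and Psmb9. Psma7 and Psmb4 rose in A0, by 0.32 ± 0.10 and 0.29 ± 0.11 (adjusted p = 0.016 and 0.038), whereas Psma7 fell in A1 by -0.18 ± 0.05 and in CHO-S by -0.85 ± 0.16 (adjusted p = 0.009 and 0.016), the latter -0.73 ± 0.04 without CHO-S culture 1. In A0 the call of Psma7 held in 11 of 14 alternative settings and that of Psmb4 in 9 of 14. The inducible Psmb8 rose in A1 by 0.28 ± 0.08 (adjusted p = 0.0087), a call that held in 6 of 9 alternative settings. Psmb9 rose in CHO-S, from 10.7, 14.9 and 11.2 CPM to 12.4, 20.4 and 20.5 CPM, by 0.68 ± 0.17 (adjusted p = 0.04), although stationary culture 1 lay within the exponential range. Without CHO-S culture 1 the increase of Psmb9 was 0.66 ± 0.12 (adjusted p = 1.2e-04). With all cultures no interaction of lines with phase passed the threshold for Psmb8 or Psmb9, and without CHO-S culture 1 that of Psmb8 for A1 against CHO-S did (0.47 ± 0.13, adjusted p = 0.005).

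Whether the difference between lines changed with phase was tested for each pair of lines. Between A1 and A0 it changed for 3 members, Psmb3 (-0.56 ± 0.16, adjusted p = 0.031), Psma7 (-0.53 ± 0.12, adjusted p = 0.0069) and Psmd7, where 8.94% of all genes tested were called. The share of genes of at least 5 CPM, the closer background, is not given for the interactions, nor are shares by direction. Psma7 and Psmb3 were higher in A1 in both phases, by less in the stationary one. For A0 against CHO-S 7 members changed, all upward, where 10.3% of all genes tested were called, namely Psma7 (1.15 ± 0.20, adjusted p = 7.1e-04), Psmc4 (1.06 ± 0.29, adjusted p = 0.021), Psmb3 (1.04 ± 0.24, adjusted p = 0.0069), Psmc5 (1.03 ± 0.19, adjusted p = 0.0011), Psmb10 (1.01 ± 0.29, adjusted p = 0.03), Psmb4 (0.90 ± 0.26, adjusted p = 0.031) and the ATPase Psmc6 (0.55 ± 0.16, adjusted p = 0.028). Psma7 and Psmc5 were lower in A0 than in CHO-S in exponential phase and higher in stationary phase. For A1 against CHO-S the 3 called were Psmc5 (0.90 ± 0.18, adjusted p = 0.0066), Psma7 (0.65 ± 0.17, adjusted p = 0.029) and Psmc3ip (0.66 ± 0.15, adjusted p = 0.019), where 7.60% of all genes tested were called. Without CHO-S culture 1 the counts were 15 for A0 and 18 for A1, where 14.2% and 23.1% were called, and the A0 values became 1.09 ± 0.15 for Psma7, 0.95 ± 0.13 for Psmc5, 0.90 ± 0.21 for Psmc4, 0.97 ± 0.20 for Psmb3, 1.04 ± 0.25 for Psmb10, 0.73 ± 0.17 for Psmb4 and 0.56 ± 0.13 for Psmc6, all still called. The A1 values became 0.77 ± 0.09 for Psmc5, 0.53 ± 0.08 for Psma7 and 0.59 ± 0.15 for Psmc3ip.

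Other genes of the pathway were taken from lists of 45 symbols, 42 of which had a row. Of 27 further proteasome and ubiquitin genes, 9 were higher and 3 lower in A1 than in A0 in exponential phase, and 6 were higher and 10 lower in stationary phase, beside the same backgrounds as above. Rps27a, a ribosomal protein gene that encodes ubiquitin as a fusion, was higher by 1.47 (adjusted p = 1.2e-06) and 0.90 (adjusted p = 7.9e-07), and Uba1, the ubiquitin-activating enzyme, by 0.63 in each phase (adjusted p = 6.1e-05 and 3.2e-06). Vcp, the segregase that extracts ubiquitinated proteins from the endoplasmic reticulum, was higher by 0.78 and 0.28 (adjusted p = 4.9e-05 and 0.0038), and the 19S ubiquitin receptor Adrm1 by 0.62 and 0.40 (adjusted p = 2.3e-04 and 5.5e-04). Ubqln1, a shuttle for ubiquitinated proteins, was lower by -0.78 and -0.44 (adjusted p = 7.6e-04 and 2.1e-04), and Pomp, the maturation factor of the core, by -0.41 and -0.46 (adjusted p = 0.031 and 2.7e-04).

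Nfe2l1, the transcription factor known to raise proteasome genes when the proteasome is inhibited, was at 112 to 128 CPM in exponential A0, 195 to 221 CPM in A1 and 281 to 289 CPM in CHO-S. In stationary phase the ranges were 310 to 443, 319 to 390 and 266 to 378 CPM, which overlapped. A1 exceeded A0 by 0.82 in exponential phase (adjusted p = 1.3e-05) and differed by -0.09 in stationary phase (adjusted p = 0.61), and the interaction was -0.91 (adjusted p = 8.0e-04). Nfe2l1 rose with stationary phase by 1.65 in A0 (adjusted p = 3.8e-08) and by 0.78 in A1 (adjusted p = 6.2e-11). In its list of 7, 1 gene was higher and 2 lower in exponential A1 and 4 were lower in stationary A1, beside 18.2% and 19.8% of genes of at least 5 CPM called higher and lower in exponential and 25% lower in stationary phase, among them Ngly1, the glycanase that activates Nfe2l1 (-0.51 and -0.62, adjusted p = 0.0042 and 4.2e-04). Of 8 antigen presentation partners of the immunoproteasome, 4 were higher in exponential and 3 in stationary A1 and none lower, beside 18.2% and 22.9% of genes of at least 5 CPM called higher. Irf1, the interferon-responsive factor that acts on Psmb9, was higher in A1 by 0.65 and 0.76 (adjusted p = 0.0047 and 7.3e-05), and the peptide transporter Tap2 differed by -0.18 (adjusted p = 0.22) in exponential phase and was higher by 0.74 (adjusted p = 2.0e-05) in stationary phase.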

How the data were processed

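Poly(A) RNA of 24 samples was sequenced after a stranded mRNA library kit. The authors aligned reads with STAR 2.5.4b to the C_griseus_v1.0 assembly and counted them per gene with HTSeq 0.7.2, and the deposited values are these raw counts in 1 table. The strand setting of the counting is not given in the sources used here. The 5 summary lines of the counter were left out. The 8 libraries of exponential A0 were summed into 4 cultures, giving 20 cultures.

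Genes detected (1 or more counts) in 2 or more libraries were scaled by TMM and tested with edgeR 4.0.16 (R 4.3.3), quasi-likelihood test, prior count 0.125 and Benjamini-Hochberg adjustment over all genes, each comparison fitted on its own groups and the interactions on 4 groups. The script was tested on simulated data. DESeq2 1.42.0, other filters, single and halved A0 cultures, left-out cultures, a replicate block and a fit of all groups were alternatives. Same-numbered A0 cultures deviated together across phases (r of 0.189 to 0.435 over genes, 4 pairs). Differently numbered cultures within 1 and 2 or within 3 and 4 did so too. Exponential culture 3 had an r of 0.33 with stationary culture 4, against 0.274 with stationary culture 3. Pairs of culture 1 or 2 with 3 or 4 had negative r. Same-numbered cultures of A1 and CHO-S did not deviate together in every pair (-0.146 to 0.186 and -0.007 to 0.124), and numbers were not shared sources between lines. The members and lists were chosen with earlier results of these data known. The rule for genes to name took the catalytic and inducible subunits, Psme1 and Psme2, in each comparison the 3 called members of at least 5 CPM with the largest change in each direction, up to 3 core or 19S members called against the majority of their class, and up to 6 other pathway genes of largest change. Not every value under this rule is printed above, among them the A0 phase decreases of Psma3 and Psma4 (-0.78 and -0.72). Psma6, Psmb2, Psmc6, Psmd2, Psmd5, Psmd10, Psmd12, Psmd14 and Psmf1 fall outside this rule and were added after their values were seen. RefSeq (CriGri-PICRH-1.0) matched 24186 of 28037 symbols, all 47 members among them, and was used for names and neighbours only. Depth limits precision mainly in CHO-S stationary culture 1. A check of the line labels is not reported here.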

Additional observations from a re-analysis of the deposited data

Results flagged for a closer look

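In 60 groups of 4 A0 cultures, 3 values lay far from the other cultures, where chance gives about 3. The gap over the whole range was 0.895 for Psmb6 and 0.902 for Psme1 in A0 exponential culture 1, both high, and 0.836 for Psmd7 in culture 3 of the same group, low. The difference between A1 and A0 changed with phase for Psmb3 (-0.56), Psmd7 (-0.51) and Psma7 (-0.53). For A0 against CHO-S the interaction was 1.01 for Psmb10, 1.04 for Psmb3, 1.06 for Psmc4, 1.15 for Psma7, 1.03 for Psmc5 and 0.90 for Psmb4. For A1 against CHO-S it was 0.66 for Psmc3ip, 0.65 for Psma7 and 0.90 for Psmc5. Psma7 was the member in which all 3 interactions passed the threshold; the comparisons share cultures and are not independent of each other.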

How the results depend on the processing

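The counts of members called, out of 46 or 47, changed with single cultures, the A0 cultures used, the block and the fit of all groups. For most settings in this section the share of all genes called is not given. The counts therefore cannot show whether other genes changed alike. When 1 culture was left out in turn, they ranged from 13 to 23 for A1 against A0 in exponential phase, 24 to 29 for A0 and 28 to 33 for A1 against CHO-S, and in stationary phase from 12 to 20, 9 to 20 and 7 to 29. The low values of 12 and 13, and of 7, came without A1 culture 2 or 3, and 20 and 29 without CHO-S culture 1. The phase counts ranged from 10 (without A0 culture 2) to 17 in A0, 27 to 32 in A1 and 0 (without CHO-S culture 2 or 3) to 43 (without culture 1) in CHO-S. The interactions ranged from 0 (without A1 culture 1 or 2; 1 without culture 3) to 8 (without A0 culture 4) for A1 and A0, 3 (without A0 culture 3) to 15 for A0 and CHO-S and 0 (without A1 culture 2 or 3; 1 without A1 culture 1 or CHO-S culture 3) to 18 for A1 and CHO-S, the highest without CHO-S culture 1.

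A replicate block gave 21, 32 and 32 calls for the exponential comparisons in the order above and 18, 8 and 9 for the stationary ones, 19, 34 and 1 for phase in A0, A1 and CHO-S and 7, 7 and 1 for the interactions, against 13 for stationary A0 and CHO-S, 18 for CHO-S phase and 3, 7 and 3 without it. Pairing of the A0 phases by number cannot be told apart from the split of its cultures 1 and 2 from 3 and 4. For A0 phase the block left the count within 1.5-fold. All 6 groups in 1 fit gave 17 calls for exponential A1 against CHO-S, 10, 21 and 19 for the stationary comparisons, 12 and 34 for phase in A1 and CHO-S and 0 and 16 for the interactions of A0 with A1 and CHO-S. DESeq2 gave 8, 18 and 5 interaction calls, the filter filterByExpr 5 for A1 and A0, and no filter 5 for A1 and CHO-S. With A0 cultures 1 and 2 alone the counts were 8 for stationary A0 against CHO-S and 13 and 4 for the A0 interactions, and with cultures 3 and 4 alone 8 for that comparison, 8 for A0 phase and 4 for the A0 and CHO-S interaction. The first library of each A0 culture, and A0 without the RLT libraries, each gave 11 and 13 for those interactions. The RLT alternative and the next were added after seeing the data: with stationary CHO-S culture 1 alone left out, 42 were called for CHO-S phase and 18 and 22 for the interactions with A0 and A1. The causes were not tested.

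Of 1386 values for single named genes under the alternatives, 1224 kept direction and side of the threshold, 131 fell below it, 12 passed it and 19 changed sign. The sign changes were in uncalled values near 0, for A1 against A0: Psmb7 at -0.03 in exponential phase, and in stationary phase Psmb5 at 0.04, 0.05 and 0.06, Psmb6 at 0.04, Psmb7 at 0.00, 0.01 and 0.02 and Psmb10 at 0.01 and 0.05. The lowest values with 1 culture left out were -0.05 for Psmb5, -0.10 for Psmb6 and -0.09 for Psmb10. Psmb9 lost its call for A1 against A0 under several alternatives in each phase.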

Other observations

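Neighbouring genes were looked up after the values of the called members were seen, as the 3 genes on each side in the RefSeq order, whose assembly is not that of the counts. They were taken for the 14 members called in the same direction at both phases, of which not all are described. For A1 against A0, all 6 neighbours of Psme4 were higher in both phases, at 0.70 to 1.40 in exponential and 0.58 to 1.68 in stationary phase. All 6 neighbours of Psmf1 were higher in exponential phase (0.40 to 0.83) and 4 were higher and 1 lower in stationary phase. Of those of Psma7, 5 and 4 were higher and none lower, and of those of Psmb3, 3 and 5 were higher and none lower. Around Psma6, 1 was higher in each phase and none lower. Around Psmb8, 1 was higher and 1 lower in exponential phase, and 2 were higher and 2 lower in stationary phase. Around Psmb9, 1 was higher and 2 were lower in each phase. The higher one was Psmb8, and Psmb9 was among the higher neighbours of Psmb8, so these members were counted as neighbours of each other. Adrm1, described above as a pathway gene, was among the higher neighbours of Psma7. Around Psmd11, 3 were higher and 2 lower in exponential phase, with values of -0.39 to 1.5. Around Psma8, none was higher and 1 was lower in each phase, with values of -0.38 to 0.17 in exponential phase beside -3.69 for Psma8 itself. Around Psmc3ip and around Psmd9, 3 were lower in exponential and 2 in stationary phase, with none higher. Of genes of at least 5 CPM, 18.2% and 22.9% were called higher in the 2 phases and 19.8% and 25% lower. Gene copy number was not measured in these data.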
